A study of Mus musculus with 8 samples.

Results

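The genes described here are 10 members of the EGF family system, out of 19263 genes with a row in the tables. They were taken by their symbols. They comprise the 6 ligands Epgn (epigen), Areg (amphiregulin), Ereg (epiregulin), Hbegf (heparin-binding EGF-like growth factor), Tgfa (transforming growth factor alpha) and Btc (betacellulin), the 3 receptors Egfr, Erbb2 and Erbb3, and Lrig1, which lowers the amount of these receptors on the cell. All 10 had a row and at least 1 transcript on the plates. In the bulk libraries 2 of the 10, Epgn and Lrig1, were abundant enough to be tested, against 4 of 10 on the plates of traced mice (Epgn, Egfr, Erbb2 and Lrig1) and 1 of 10, Egfr, on the Troy-EGFP plates.

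The ligands are made as precursors in the cell membrane and are released by proteases such as ADAM17. They bind EGFR, and some of them also ERBB4. ERBB2 has no known ligand of its own and acts as the partner of the other receptors, while ERBB3 binds neuregulins and has little kinase activity. Receptor pairs switch on the RAS-MAPK cascade, which in turn induces inhibitors such as the Sprouty proteins. In skin, EGFR acts in basal keratinocytes, where it favours growth over differentiation, and Lrig1 is known as a marker of stem cells at the junctional zone of the hair follicle.

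All mice were adult C57BL/6 mice with the Troy-EGFP-IRES-CreERT2 knockin, in which EGFP and the tamoxifen-dependent CreERT2 replace the coding region of Troy (Tnfrsf19). The bulk libraries came from 2 mice, each sorted into viable (DAPI-) epidermal cells, ITGA6bright Troy-EGFP+ cells and ITGA6bright Troy-EGFP- cells. ITGA6 is an integrin of the basal layer, where keratinocytes hold on to the basement membrane. The Troy-EGFP plates held single cells of 4 mice from 3 sort gates (ITGA6-, ITGA6bright EGFP- and ITGA6bright EGFP+). The traced plates held single cells of 2 mice that were double homozygous for Troy-EGFP-IRES-CreERT2 and Rosa26-LSL-tdTomato, so that both copies of Troy carried the cassette, and that were taken 7 days after tamoxifen, with tdTomato+ and tdTomato- cells sorted. The skin was back skin in telogen, the resting phase of the hair cycle. The sort gate of a well was not used here.

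The bulk libraries held 157537 to 453005 counts on genes, and 71 to 262 wells a plate, 1109 in all, passed the minimum of 1000 transcripts. A kept well had a median of 1676 to 3267 transcripts on its plate, so a well in which a low gene was not seen may still express it. The same 384 cell barcodes were used on all 6 plates. The tag of each transcript lies at its 3' end, so levels do not scale with gene length. They are given as CPM, the gene's counts or transcripts divided by the total of the library or sum and scaled by the same factor. Bulk totals include mitochondrial counts, 12.5 to 16.1% of a library, which the plate totals leave out. Wells were grouped into clusters named by their markers as IFE I-like (basal interfollicular epidermis, Krt14 and Krt5), IFE II-like (committed interfollicular epidermis, Krt1 and Krt10), lower HF-like (lower hair follicle, Postn and Cd34) and upper HF-like (upper hair follicle, Krt79 and Gata6). The 10 members and the pathway genes named later were left out of the clustering, so their values did not set the classes. In each of the 4 classes the summed own markers were higher than in the other classes of the same experiment, for instance 38479 to 46901 CPM of summed upper HF markers in upper HF-like wells of the Troy-EGFP plates against 144 to 3084 CPM in the other classes. The gap was narrowest for the lower HF markers of the traced plates, with 20676 to 28189 CPM in lower HF-like against 14209 to 17959 CPM in IFE I-like cells. On the traced plates the classes were carried over from the Troy-EGFP plates by label transfer, which put 104 wells in upper HF-like. Clustered on their own, these plates had 52 upper HF-like wells and an unnamed cluster of 86 wells. The top genes of that cluster included Vim, Lgals9, Sostdc1 and Aldh3a1. Which of the 4 classes its wells took by transfer is not given here.

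The 10 members lie at 7 places in the genome (GRCm38.p6). Epgn (chr5:91027517-91035212), Ereg (chr5:91074617-91093649), Areg (chr5:91139599-91148432) and Btc (chr5:91357261-91402994) stand side by side, with 375478 bases from the start of the first to the end of the last. Tgfa lies at chr6:86195038-86275744, Lrig1 at chr6:94604529-94700298, Erbb3 at chr10:128567523-128589635, Egfr at chr11:16752203-16913907 and Erbb2 at chr11:98412484-98437716, and Hbegf is on a chromosome with no other member. The promoters of Epgn and Lrig1, the members that differed between cell populations, are shown from 250 bases before to 50 after the RefSeq start (GRCm38.p6), read along the gene's strand, at chr5:91027267-91027566 on the plus strand and chr6:94700096-94700395 on the minus strand. For Lrig1 the start is that of the RefSeq promoter table, which lies inside the gene as given above and not at its outermost end.
Epgn: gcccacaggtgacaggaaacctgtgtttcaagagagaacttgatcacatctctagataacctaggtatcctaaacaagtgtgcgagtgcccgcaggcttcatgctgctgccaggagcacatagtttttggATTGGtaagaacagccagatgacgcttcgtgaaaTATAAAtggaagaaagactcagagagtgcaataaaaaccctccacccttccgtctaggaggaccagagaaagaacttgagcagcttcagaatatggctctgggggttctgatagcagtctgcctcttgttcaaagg
Lrig1: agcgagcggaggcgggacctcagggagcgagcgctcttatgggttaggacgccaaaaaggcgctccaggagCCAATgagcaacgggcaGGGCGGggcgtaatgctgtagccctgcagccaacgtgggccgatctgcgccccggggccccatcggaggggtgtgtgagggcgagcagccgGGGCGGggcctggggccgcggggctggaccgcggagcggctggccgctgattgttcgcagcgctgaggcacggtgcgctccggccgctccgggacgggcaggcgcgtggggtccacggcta
Capitals mark matches on either strand to the TATA box (letters TATAAA), the GC box (letters GGGCGG) or the CCAAT box (letters CCAAT). The AP-1 site (letters TGAGTCA) and the E box (letters CACGTG) were searched as well, without a match in either promoter. The Epgn promoter has 47.3% G and C, the TATA box letters 86 bases before the start and those of the CCAAT box on the other strand, where capitals show the reverse complement. The Lrig1 promoter has 73.0% G and C, 2 matches to the GC box and 1 to the CCAAT box, and no TATA box. Of 32544 mouse promoters of this length, 13.6% held the TATA box letters, 35.9% those of the GC box, 37.4% those of the CCAAT box, 5.19% those of the AP-1 site and 7.17% those of the E box. These are matches of letters only.

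Bulk sequencing addressed how Troy-EGFP+ cells of the basal layer differ from the Troy-EGFP- cells beside them. Lrig1 was lower in ITGA6bright Troy-EGFP+ cells than in ITGA6bright Troy-EGFP- cells (fold 0.326). Epgn was higher in Troy-EGFP+ cells in both mice, although it did not pass the test. The other 8 members had at most 12 counts in a library and were too low for the main test, so no call of their direction is made.

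Of the sort itself, Tnfrsf19 stood at 102 and 67.4 CPM in Troy-EGFP+ cells of mouse 1 and mouse 2, at 19.0 and 31.9 CPM in Troy-EGFP- cells and at 78.7 and 81.7 CPM in viable cells. Tnfrsf19 was therefore higher in Troy-EGFP+ than in Troy-EGFP- cells of both mice. Itga6, the gene of the sorted integrin, had 129 and 207 CPM in Troy-EGFP+ cells, 108 and 174 CPM in viable cells and 25.4 and 79.7 CPM in Troy-EGFP- cells, so the RNA of the gate's marker was lowest in a population sorted as bright for it. The Troy-EGFP- cells held more markers of the upper hair follicle (3682 to 6475 CPM summed over 7 genes, against 666 to 830.4 CPM in Troy-EGFP+ cells) and of Langerhans cells (1124 to 1201 CPM summed over 7 genes, against 92.7 to 102 CPM, with Cd207 and Csf1r at 0 in both Troy-EGFP+ libraries). They also held more markers of the lower hair follicle (12924 to 16639.7 against 9539.5 to 10989.7 CPM, 3 of 6 tested called), the sebaceous gland (209 to 255 against 84.3 to 141 CPM) and fibroblasts (74.4 to 76.2 against 4.95 to 16.9 CPM, with Col1a1 and Col3a1 at 0 in both Troy-EGFP+ libraries). T cell markers overlapped (249.7 to 438 against 202 to 299.6 CPM), with 1 of 2 tested called as lower in Troy-EGFP+ cells. Of all genes tested in this comparison 6.96% were called, and nothing is read from the counts of called markers. Of the lower follicle list, Cd34 and Fgf18 had no count in either Troy-EGFP- library, and Cd34 had 2 and 0 counts in the Troy-EGFP+ libraries. The Troy-EGFP+ cells held more markers of the basal and the committed interfollicular epidermis (27476 to 27591 against 15450.3 to 17017 CPM, and 3398 to 3474 against 1110.4 to 1441 CPM). The part of these shifts in the member results was not tested. In sorted bulk samples, fewer cells of a type and less RNA per cell cannot be told apart.

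Among the ligands, Epgn had 36 and 19 counts in the Troy-EGFP+ libraries of mouse 1 and mouse 2, 3 and 7 in the Troy-EGFP- libraries and 14 and 26 in the viable libraries. These were 89.1 and 80.1 CPM, 19.0 and 37.2 CPM, and 45.9 and 57.4 CPM. The 3 populations did not overlap, with Troy-EGFP+ cells highest (84.6 ± 6.39 CPM, SD, n = 2), viable cells between (51.6 ± 8.14 CPM) and Troy-EGFP- cells lowest (28.1 ± 12.8 CPM). The fitted difference of Troy-EGFP+ against Troy-EGFP- cells was 1.47 on the log2 scale (SE 0.475), a fold of 2.78 with a 95% interval of 1.46 to 5.30, and an adjusted p of 0.0683 (edgeR, quasi-likelihood test). With the mouse as a block it was 1.49 (SE 0.509, adjusted p = 0.0465, edgeR), and leaving out the mouse 2 library of Troy-EGFP- cells gave 2.07 (adjusted p = 0.0304, edgeR).

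The other ligands were near the limit of detection. Areg had 2 and 3 counts in the Troy-EGFP+ libraries, Ereg 3 and 2, and Hbegf 3 and 2, against 0 of each in both Troy-EGFP- libraries. In Troy-EGFP+ cells they averaged 7.93 to 8.80 CPM, which is about what 3 counts would give in the smaller Troy-EGFP- libraries together (8.68 CPM), so no fold is given. Tgfa had 2 and 0 counts in Troy-EGFP+ libraries, against 1 and 0 where EGFP was absent. Btc, in the same stretch of chromosome 5 as Epgn, had 0 and 1 counts in the Troy-EGFP+ libraries, against 2 and 3 in the Troy-EGFP- ones (2.11 ± 2.98 and 14.3 ± 2.29 CPM). When the genes with low counts were kept, the Btc difference was -2.80 on the log2 scale (SE 1.48, fold 0.143 with a 95% interval of 0.0193 to 1.07, adjusted p = 0.514, edgeR).

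The receptors did not separate the bulk populations. For Egfr, the receptor of all 6 ligands, Troy-EGFP+ cells had 11 and 4 counts, Troy-EGFP- cells had 3 and 6 and viable cells had 9 and 6, with means of 22 ± 7.33, 25.5 ± 9.07 and 21.4 ± 11.5 CPM that overlapped. Erbb2 had 12 and 2 counts, 7 and 0 counts, and 7 and 8 counts in the same populations, and its spread within the Troy-EGFP+ and Troy-EGFP- populations was wider than the difference between their means. Erbb3 had 1 count in a Troy-EGFP+ library and 1 in a viable library, both of mouse 1.

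Lrig1, the inhibitor, had 18 and 5 counts in Troy-EGFP+ cells of mouse 1 and mouse 2, 12 and 24 in Troy-EGFP- cells and 26 and 23 in viable cells. Troy-EGFP+ cells averaged 32.8 ± 16.6 CPM and Troy-EGFP- cells 102 ± 36.3 CPM, with viable cells at 68.0 ± 24.3 CPM, and the Troy-EGFP+ and Troy-EGFP- libraries did not overlap. The difference was -1.62 on the log2 scale (SE 0.462, fold 0.326 with a 95% interval of 0.174 to 0.610, adjusted p = 0.0373, edgeR). Lrig1 was thus called and Epgn was not, the only 2 members tested, where 324 of 4652 genes tested, 6.96%, were called. The call was lost when either sorted library of mouse 2 was left out (-1.24, adjusted p = 0.218, for its Troy-EGFP+ and -1.17, adjusted p = 0.164, for its Troy-EGFP- library), with the genes of low counts kept (-1.45, adjusted p = 0.0591, all edgeR) and by DESeq2 (-1.58, adjusted p = 0.336). It was lower in Troy-EGFP+ cells in each of these.

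**Figure D1:**
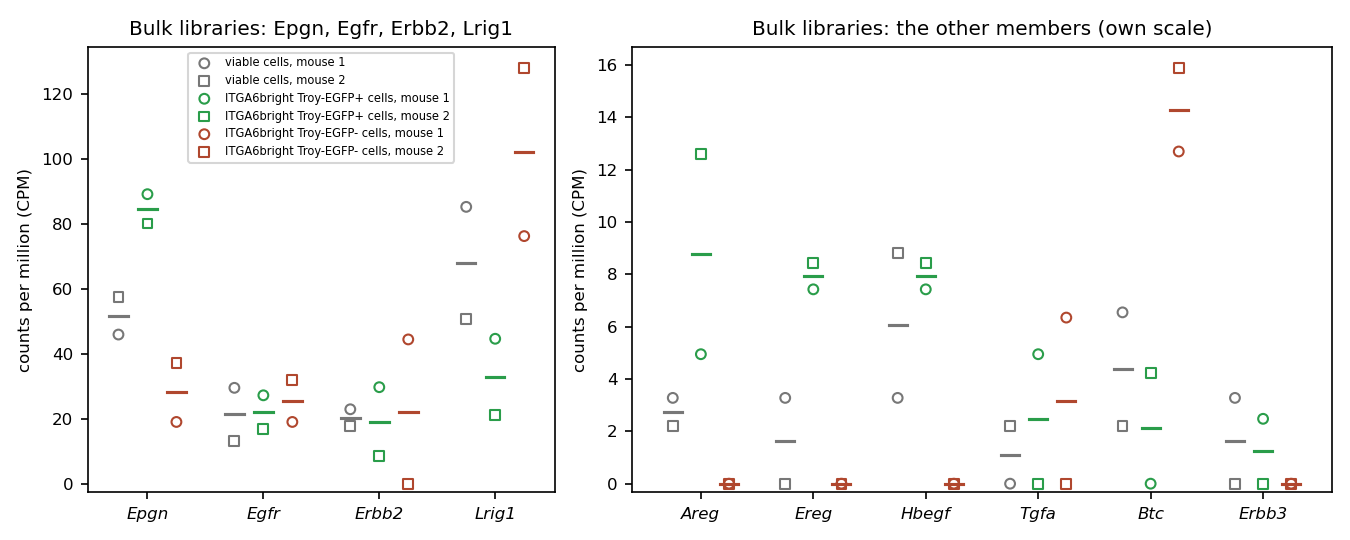
Levels of the 10 members in the bulk libraries, in CPM on linear axes, with 1 point for each mouse (circle, mouse 1, and square, mouse 2) and a line at the mean of each population. Epgn was highest in both Troy-EGFP+ libraries (89.1 and 80.1 CPM), Lrig1 averaged 102 CPM in Troy-EGFP- and 32.8 CPM in Troy-EGFP+ cells, and the members of the right panel, which has its own scale, rest on at most 5 counts in a population.

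Against viable cells no member passed. Epgn differed by 0.74 (SE 0.356, fold 1.67 with a 95% interval of 1.03 to 2.70, adjusted p = 0.746, edgeR) and Lrig1 by -0.86 (SE 0.443, fold 0.550, 0.301 to 1.00, adjusted p = 0.80, edgeR) in Troy-EGFP+ cells, where 22 genes, 0.473%, were called. In Troy-EGFP- cells Epgn differed by -0.74 (fold 0.60, 0.303 to 1.19, adjusted p = 0.581, edgeR) and Lrig1 by 0.76 (fold 1.69, 0.964 to 2.95, adjusted p = 0.452, edgeR), where 81 genes, 1.74%, were called. All 3 comparisons share libraries, so their values are not independent.

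The list of other pathway genes held 44 genes, 43 of them with a row. In bulk 27 were tested and 3 were called between Troy-EGFP+ and Troy-EGFP- cells, where 6.96% of all genes were called. The inhibitors Spry1 (2.36, SE 0.629, adjusted p = 0.0269) and Socs3 (1.58, SE 0.367, adjusted p = 0.0103), which is known mainly as a brake on cytokine signalling, were higher in Troy-EGFP+ cells, and Mapk3, which encodes the kinase ERK1, was lower (-1.42, SE 0.321, adjusted p = 0.00839, all edgeR, log2 scale). Of the 11 inhibitors of the list 7 were tested, with a median of 0.63, and 2 were called, against the same 6.96% of all genes, and nothing particular to these small lists is read from the counts. The 27 genes had a median of -0.00460 and all genes tested -0.04. Of 11 genes known to respond to cell dissociation, all tested, 4 were higher in Troy-EGFP+ cells, with 4418 to 4466 CPM summed against 3269 to 3613 CPM, and the part of handling in these differences was not tested. None of the 27 genes was called against viable cells in either comparison (edgeR).

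Single cells addressed in which compartments of the epidermis the members are found. On the traced plates, Epgn reached the highest level of any member in a class and was found mainly in interfollicular cells, whereas Lrig1 was highest in upper HF-like cells. Erbb2 was highest in upper HF-like cells without passing the test, and Egfr was present in all 4 classes, highest in lower HF-like cells without passing the test. Transcripts were summed for each mouse and class with at least 10 wells, which gave 8 sums from 2 mice, and 2 of 10 members differed among the classes in the joint test, Epgn (adjusted p = 9.54e-06, edgeR) and Lrig1 (adjusted p = 0.00261, edgeR), where 1070 of 4715 genes, 22.7%, were called. Over all pairs of classes there were 6 calls of a member among 24 tests, and 10.4% of the tests of all genes were called. By pair, 7.13% of genes were called between IFE II-like and IFE I-like cells, 14.8% between lower HF-like and IFE I-like, 10.3% between upper HF-like and IFE I-like, 13.5% between lower HF-like and IFE II-like, 7.42% between upper HF-like and IFE II-like and 9.10% between upper HF-like and lower HF-like cells.

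**Figure D2:**
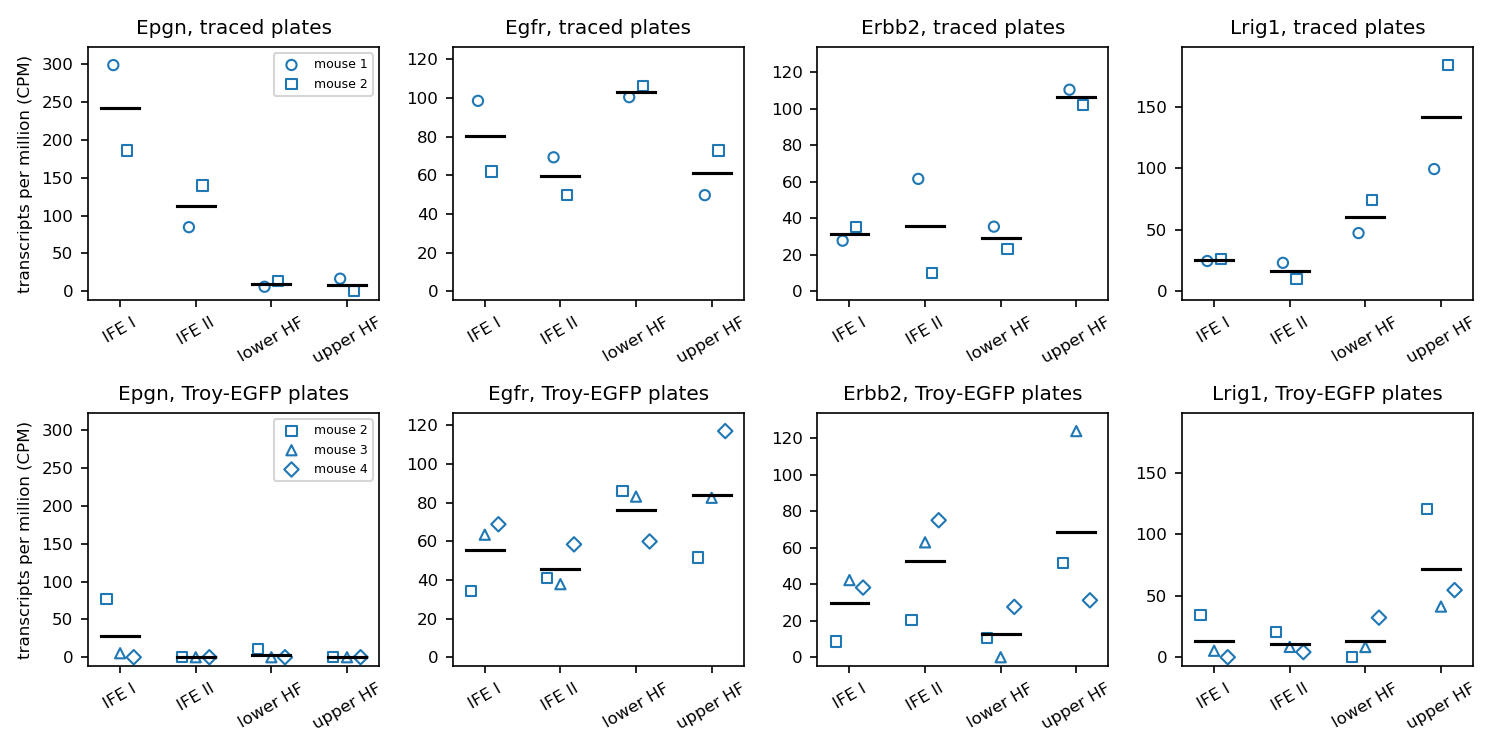
Levels of Epgn, Egfr, Erbb2 and Lrig1 in the 4 epidermal classes, in CPM on linear axes shared between both rows, for the traced plates (top, 2 mice) and the Troy-EGFP plates (bottom, 3 mice with enough wells), with 1 point for each mouse and a line at the mean. On the traced plates Epgn stood at 299 and 186 CPM in IFE I-like cells and at 0 to 16.6 CPM in the follicle classes, and Lrig1 was highest in upper HF-like cells in both mice, whereas on the Troy-EGFP plates Epgn was seen in IFE I-like cells of mouse 2 (77.2 CPM) and hardly elsewhere.

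Epgn reached 299 and 186 CPM in IFE I-like cells of traced mouse 1 and mouse 2, and 84.7 and 139.8 CPM in IFE II-like cells. Lower HF-like cells had 5.91 and 13.9 CPM and upper HF-like cells 16.6 and 0 CPM. The interfollicular classes therefore did not overlap with the follicle classes. Lower HF-like cells were below IFE I-like cells by -4.57 on the log2 scale (SE 0.633, fold 0.0422, adjusted p = 5.98e-05) and upper HF-like cells by -4.89 (SE 0.667, fold 0.0337, adjusted p = 4.99e-05, edgeR). Against IFE II-like cells the differences were -3.46 (SE 0.751, adjusted p = 0.00366) and -3.79 (SE 0.792, adjusted p = 0.00439, edgeR). The follicle values rest on 4 counts in lower HF-like and 3 counts in upper HF-like cells, against 139 in IFE I-like cells, and the ratios of the summed counts were 0.0412 (95% counting interval 0.0111 to 0.108) and 0.0307 (0.00626 to 0.0917). IFE II-like cells were below IFE I-like cells by -1.10 (SE 0.469, fold 0.466 with a 95% interval of 0.247 to 0.881), which did not pass (adjusted p = 0.197, edgeR).

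The Epgn transcripts came from few wells. In IFE I-like cells 97 barcodes came from 25 of 82 wells of mouse 1, up to 15 in a well, and 42 barcodes from 12 of 62 wells of mouse 2, up to 9 in a well. In IFE II-like cells 11 barcodes came from 3 of 28 wells of mouse 1, 8 of them from 1 well, and all 14 of mouse 2 from 1 of 20 wells, so the IFE II-like level rests on single wells. After thinning every well to 1000 barcodes, 12.5% of IFE I-like wells had Epgn (exact binomial 95% interval 7.58 to 19.0%, n = 144 wells), against 4.17% of IFE II-like wells, 0.943% of lower HF-like wells and 0 of 104 upper HF-like wells, where 3 wells would be 2.88% and the exact interval reaches 3.48%. These limits are on wells with a barcode after thinning, not on wells that express the gene. Without thinning the shares were 25.7%, 8.33%, 1.89% and 1.92%. In T cell-like wells, which should lack the gene, 1 of 27 wells had Epgn (3.70%, median 1969 barcodes a well, against 3455 in IFE I-like wells). Intervals on wells cover counting error only. T cell markers summed to at least 70.7 CPM in both IFE I-like sums and to at most 38.7 CPM in the follicle sums. Melanocyte markers reached 296 CPM in the IFE I-like sum of mouse 2, and the well with 67 barcodes of them held 0 of all 10 members.

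**Figure D3:**
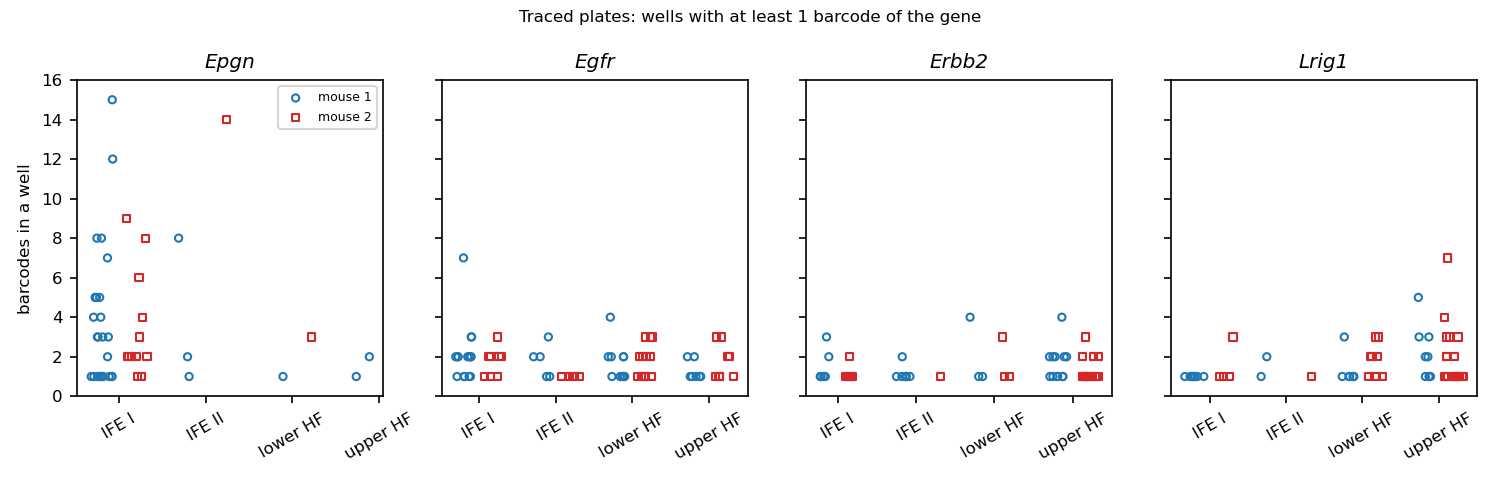
Barcodes of Epgn, Egfr, Erbb2 and Lrig1 in each well of the traced plates that had at least 1, by class, for mouse 1 (circles) and mouse 2 (squares), on a linear axis, with points spread sideways for legibility. Epgn reached 15 barcodes in an IFE I-like well and was found in 25 and 12 wells of that class, against at most 2 wells of a follicle class in a mouse.

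The other ligands were rare on the traced plates. Hbegf had 11 and 6 transcripts over all kept wells of mouse 1 and mouse 2, spread over all 4 classes, with means of 4.63 to 14.5 CPM. All 5 Tgfa, all 3 Btc and both Ereg transcripts were in upper HF-like wells of mouse 1, in 3, 2 and 1 wells, and mouse 2 had none. Areg had 1 transcript in mouse 1 and 6 in mouse 2, 5 of them in 1 lower HF-like well. That well had 50743 transcripts of 6898 genes, against 14329 transcripts in the next deepest well of the series, and it also held all 3 Epgn, 3 of 5 Erbb2 and 3 of 16 Lrig1 barcodes of the lower HF-like sum of its mouse.

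Egfr had 98.5 and 61.9 CPM in IFE I-like, 69.3 and 49.9 CPM in IFE II-like, 100.4 and 106 CPM in lower HF-like and 49.7 and 72.8 CPM in upper HF-like cells of the traced mice. The classes overlapped except that both lower HF-like values were above all others. No pair of classes passed, and the largest difference, upper HF-like against lower HF-like, was -0.69 (SE 0.467, fold 0.621 with a 95% interval of 0.329 to 1.17, adjusted p = 0.472, edgeR). After thinning, Egfr was seen in 11.3% of the lower HF-like wells, in 6.94% (IFE I-like), 2.08% (IFE II-like) and 1.92% (upper HF-like) of the others. Without thinning the shares were 21.7%, 16%, 20.8% and 15.4% in the same order, so the place of IFE II-like cells changed with thinning and no order of the shares is read. None of 27 T cell-like wells had Egfr or Erbb2, where 3 wells would be 11.1% and the exact interval reaches 12.8%.

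Erbb2 stood at 110.5 and 102 CPM in upper HF-like cells of the traced mice. It had 27.7 and 35.4 CPM in IFE I-like, 61.6 and 9.99 CPM in IFE II-like and 35.4 and 23.1 CPM in lower HF-like cells. Both upper HF-like values were above all others. The differences of upper HF-like cells were 1.72 against IFE I-like (SE 0.574, fold 3.30, 1.51 to 7.20, adjusted p = 0.0649) and 1.92 against lower HF-like cells (SE 0.616, fold 3.78, 1.64 to 8.72, adjusted p = 0.0581, edgeR), and the joint test gave an adjusted p of 0.0548. The joint test passed with the mouse as a block (adjusted p = 0.0457, edgeR), and without the deepest well the difference from lower HF-like cells was 2.17 (adjusted p = 0.0339, edgeR). Erbb2 was seen in 12 of 47 and 16 of 57 upper HF-like wells, and after thinning in 10.6% of them (5.40 to 18.1%), against 8.33% of the IFE II-like wells, 2.08% of the IFE I-like and 0.943% of the lower HF-like ones. The thinned upper HF-like and IFE II-like shares thus lay close together, the latter from 4 of 48 wells. They lay further apart without thinning, at 26.9% (18.7 to 36.5%) and 16.7% (7.48 to 30.2%), with intervals that overlapped. The IFE I-like and lower HF-like shares were then 9.03% and 5.66%. The difference between upper HF-like and IFE II-like cells was 1.38 (SE 0.649, fold 2.60, 1.1 to 6.27, adjusted p = 0.238, edgeR). Erbb3 had 7 and 3 transcripts in all, 6 of them in 3 IFE I-like wells of mouse 1.

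Lrig1 had 99.4 and 184 CPM in upper HF-like cells of the traced mice, and 47.3 and 74.0 CPM in lower HF-like cells. It had 24.6 and 26.5 CPM in IFE I-like and 23.1 and 9.99 CPM in IFE II-like cells. The classes thus followed the order upper HF-like, lower HF-like, IFE I-like and IFE II-like, with no overlap between neighbours. Upper HF-like cells were above IFE I-like cells by 2.43 (SE 0.525, fold 5.37, 2.64 to 11, adjusted p = 0.00437) and above IFE II-like cells by 2.92 (SE 0.678, fold 7.57, 3.01 to 19.0, adjusted p = 0.00900, edgeR). Neighbours in the order did not pass. Upper HF-like against lower HF-like cells gave 1.26 (fold 2.39, 1.24 to 4.64, adjusted p = 0.130), lower HF-like against IFE I-like cells 1.17 (fold 2.25, 1.03 to 4.91, adjusted p = 0.218) and IFE II-like against IFE I-like cells -0.49 (fold 0.710, 0.231 to 2.19, adjusted p = 0.83, edgeR). The 56 upper HF-like barcodes came from 8 of 47 wells of mouse 1 and 20 of 57 wells of mouse 2, and after thinning 11.5% of the wells had Lrig1 (6.11 to 19.3%) against 1.89% of lower HF-like and 2.78% of IFE I-like wells, and 3.70% of T cell-like wells. Without thinning the shares were 26.9%, 14.2%, 8.33% and 7.41%, so lower HF-like and IFE I-like wells changed places with thinning and their order is not read from the shares.

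**Figure D4:**
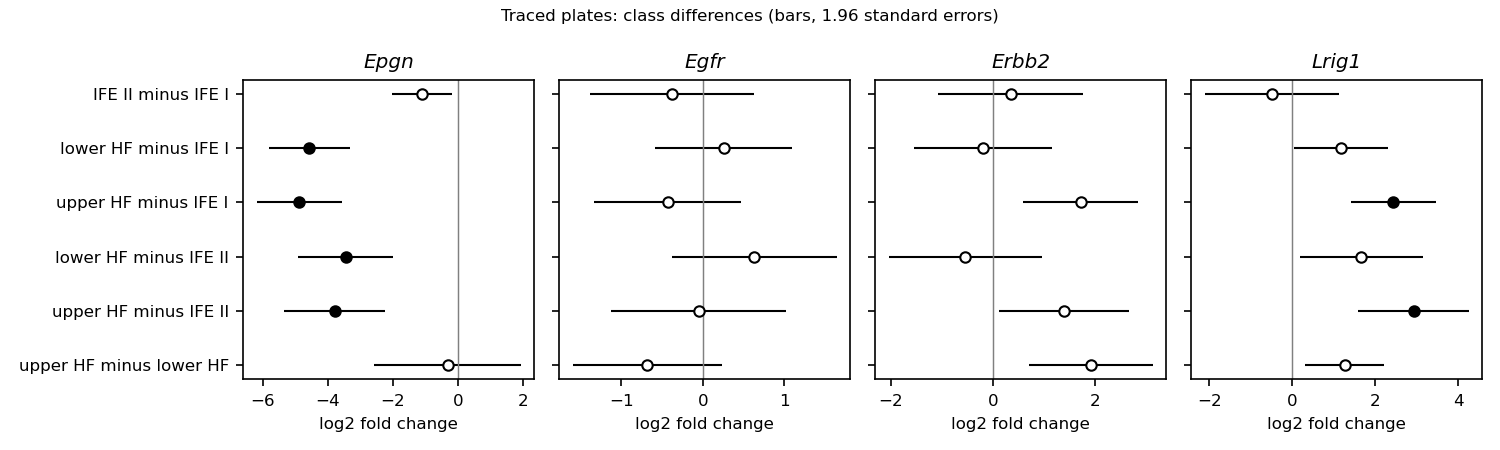
Differences between classes on the traced plates, as log2 fold changes with 95% bars from the standard error of the edgeR fit, for the 4 members that were tested, with filled points where the adjusted p passed 0.05. Epgn has 4 filled points, all below -3, Lrig1 has 2 filled points, at 2.43 and 2.92, and Egfr and Erbb2 have none.

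These calls rest on both traced mice. Without mouse 1 or without mouse 2 each class has 1 traced sum, and the fit then took its spread from the Troy-EGFP sums as well, with the lone sums assumed to vary like those. No call was left, with Epgn differences of lower HF-like from IFE I-like cells of -3.79 (adjusted p = 0.677, edgeR) without mouse 1 and -5.56 (adjusted p = 0.316) without mouse 2, and of lower HF-like from IFE II-like cells of -3.37 (adjusted p = 0.748) and -3.78 (adjusted p = 0.543). For upper HF-like cells the Epgn differences were -4.13 from IFE I-like (adjusted p = 0.595) and -2.35 from IFE II-like cells (adjusted p = 0.905) without mouse 2. Without mouse 1 the upper HF-like sum has 0 Epgn counts, so no difference is given (adjusted p = 0.418 and 0.504, edgeR). The Lrig1 differences of upper HF-like cells were 2.66 (adjusted p = 0.740) and 2.0 (adjusted p = 0.972) from IFE I-like cells and 4.01 (adjusted p = 0.543) and 2.02 (adjusted p = 0.907) from IFE II-like cells. All kept their direction. By DESeq2 both Lrig1 pairs missed the threshold (2.45, adjusted p = 0.0934, and 2.98, adjusted p = 0.0904). They also missed it when the traced plates were clustered on their own (2.08, adjusted p = 0.0585, and 2.22, adjusted p = 0.131, edgeR), a choice made after the data were seen. That clustering left out an unnamed cluster of 86 wells and had 52 upper HF-like wells, against 104 by label transfer. In that clustering Erbb2 passed instead, with 2.26 against IFE I-like (adjusted p = 0.0252) and 2.27 against lower HF-like cells (adjusted p = 0.0375, edgeR), and the 4 Epgn calls stood.

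On the Troy-EGFP plates, 3 of 4 mice gave sums of at least 10 wells, which made 12 sums. Only Egfr passed the filter on low counts, and it did not pass the test among the classes (adjusted p = 0.709, edgeR), where 482 of 2961 genes, 16.3%, were called. No pair of classes was called for a member, where 7.27% of the tests of all genes were called. In the order of pairs given for the traced plates these shares were 3.82%, 8.07%, 5.88%, 11.9%, 6.21% and 7.77%. At an unadjusted p under 0.05 there was no call either in this fit, and 3 members, Epgn, Lrig1 and Areg, when genes of low counts were kept, none of them past the adjusted threshold (Epgn adjusted p = 0.0885, Lrig1 adjusted p = 0.134, edgeR). DESeq2 called none.

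Epgn had 77.2, 5.28 and 0 CPM in IFE I-like cells of mice 2, 3 and 4. In IFE II-like and upper HF-like cells all 3 sums were at 0, and lower HF-like cells had 10.7, 0 and 0 CPM. Of its 11 transcripts over the 12 sums, 9 were thus in IFE I-like cells of mouse 2. Areg had 25.7, 5.28 and 7.65 CPM in IFE I-like and 68.8, 13.7 and 0 CPM in upper HF-like cells and was at 0 in all lower HF-like sums, with 7 of its 12 transcripts in mouse 2. Over the mice, Btc reached at most 7 transcripts in a class, Hbegf 5, and Tgfa and Ereg 2 each.

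Egfr had 34.3, 63.4 and 68.8 CPM in IFE I-like cells of mice 2, 3 and 4 and 41.1, 37.8 and 58.4 CPM in IFE II-like cells. Lower HF-like cells had 85.8, 83.1 and 59.9 CPM and upper HF-like cells 51.6, 82.5 and 117 CPM. All 3 lower HF-like values were above the IFE II-like ones, and the other pairs of classes overlapped. No pair passed, and the widest fitted difference, upper HF-like against IFE II-like cells, was 0.78 (SE 0.507, fold 1.71, 0.860 to 3.41, adjusted p = 0.509, edgeR). Erbb2 averaged 68.8 ± 48.6 CPM in upper HF-like, 52.9 ± 28.6 CPM in IFE II-like, 29.7 ± 18.4 CPM in IFE I-like and 12.8 ± 13.9 CPM in lower HF-like cells (SD, n = 3), and was not tested in the filtered fit. Lrig1 had 120.5, 41.2 and 54.6 CPM in upper HF-like cells, above all values of the other 3 epidermal classes, which ran from 0 to 34.3 CPM. The T cell-like sums of mice 3 and 4 had 49.2 and 30.1 CPM, from 1 and 2 transcripts. Among the epidermal classes, upper HF-like cells were thus the highest in Lrig1 in both experiments. Lrig1 was seen in 21.7% of upper HF-like wells (15 of 69) without thinning and in 5.80% with it, against 3.16% and 0.633% of IFE I-like wells. In T cell-like wells these shares were 6.98% and 4.65%, and in Langerhans cell-like wells 2.56% and 0%, with median depths of 1714 and 3004 barcodes. The thinned Lrig1 share of upper HF-like wells is therefore close to that of T cell-like wells here.

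The class differences of the members were compared between the traced and the Troy-EGFP plates by an interaction test. None of the 4 members tested, Epgn, Egfr, Erbb2 and Lrig1, was called (all adjusted p = 1.00, edgeR), nor had any an unadjusted p under 0.05, and 0 of 5703 genes, 0%, were called. With the mouse as a block none was called either (adjusted p = 0.960 for Epgn, 0.995 for Erbb2 and 1.00 for Egfr and Lrig1, edgeR). Tamoxifen, the traced genotype and the plates differ together between the experiments and cannot be told apart. Sex differs in part, as only the plates of Troy-EGFP mice 3 and 4 held Xist, and its part was not tested.

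Over whole plates the members differed in level from plate to plate. Epgn had 137 and 76.0 CPM over all kept wells of traced mouse 1 and mouse 2 and 6.49, 30.2, 1.29 and 0 CPM on the plates of Troy-EGFP mice 1 to 4, where 3 transcripts would be 19.5, 8.23, 3.88 and 2.95 CPM. Lrig1 had 44.5 and 81.1 CPM on the traced plates and 58.4, 35.7, 11.7 and 18.7 CPM on the Troy-EGFP plates. Lrig1 was thus lowest on the plates of Troy-EGFP mice 3 and 4, whereas Epgn cannot be ranked between these and the shallow plate of mouse 1, which held 1 transcript. The plates of mice 3 and 4 are also the only plates with Xist (105 and 110 barcodes) and without Ddx3y (0 barcodes, against 15 to 101 on the others), and they share an older set of gene names. The bulk libraries, with the same older names, had Epgn at 19.0 to 89.1 CPM, of totals that include mitochondrial counts. This comparison was chosen after the values were seen and was not tested, and mouse, sex, plate and gene names cannot be told apart. Egfr varied less, with 80.6 and 73.3 CPM on the traced plates and 38.9, 49.4, 47.9 and 61.0 CPM on the Troy-EGFP plates. Erbb2 had 51.7 and 45.0 CPM and 6.49, 19.2, 45.3 and 40.4 CPM.

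**Figure D5:**
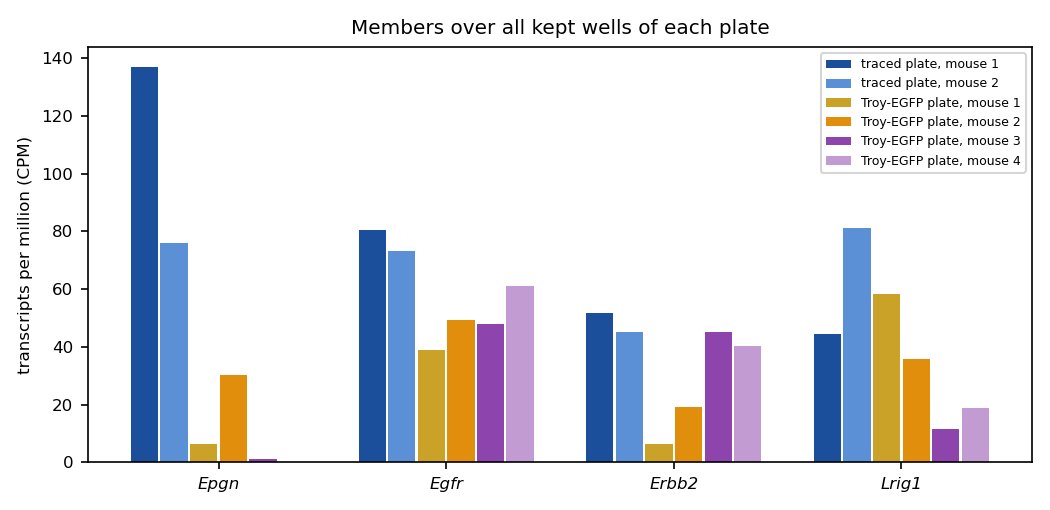
Epgn, Egfr, Erbb2 and Lrig1 over all kept wells of each of the 6 plates, in CPM, 1 bar a plate from a zero baseline. Epgn ran from 0 CPM on the plate of Troy-EGFP mouse 4 to 137 CPM on that of traced mouse 1, while Egfr stayed between 38.9 and 80.6 CPM.

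Epgn and its receptor were found together in some wells. On the traced plates 7 of 31 epidermal wells with Epgn of mouse 1 also had Egfr (22.6%), against 16.1% of the wells without Epgn, and 3 of 14 (21.4%) against 18.7% in mouse 2. The wells with Epgn were a little deeper, with medians of 3852 and 3714 barcodes against 3278 and 3434. On the plate of Troy-EGFP mouse 2, 1 of 5 wells with Epgn had Egfr, against 13.1% of the others, and the other Troy-EGFP plates held at most 1 well with Epgn. The difference between these shares was not tested.

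Of the 44 other pathway genes, 22 were tested on the traced plates and 3 differed among the classes, and 18 were tested on the Troy-EGFP plates, where 2 did. These shares are below the 22.7% and 16.3% of all genes called in the same tests, so the list did not stand out, and the genes that follow are given as single values. Ccnd1, which encodes cyclin D1 and is induced by growth factors, was lower than in IFE I-like cells in IFE II-like cells of both experiments (-2.35, adjusted p = 0.0129, traced, and -3.36, adjusted p = 0.0181, Troy-EGFP, edgeR) and, on the traced plates, also in lower HF-like (-1.77, adjusted p = 0.0132) and upper HF-like cells (-2.0, adjusted p = 0.00928, edgeR). Ier3, an immediate early response gene, was higher in lower HF-like than in IFE I-like cells (2.66, adjusted p = 2.57e-04, and 3.69, adjusted p = 0.0123, edgeR) and IFE II-like cells (4.81, adjusted p = 9.45e-05, and 3.2, adjusted p = 0.0215, edgeR) of both experiments. On the traced plates Ier3 was also higher in upper HF-like than in IFE II-like cells (3.61, adjusted p = 0.00532, edgeR). On the traced plates Mapk3 was higher in lower HF-like than in IFE I-like cells (1.39, adjusted p = 0.0167) and Braf, a kinase of the cascade, higher in lower HF-like than in IFE II-like cells (2.79, adjusted p = 0.0185, edgeR). Spred1, an inhibitor of RAS signalling, was higher in lower HF-like than in IFE II-like cells of the Troy-EGFP plates (1.88, adjusted p = 0.0389, edgeR). The list's medians in the pairs of classes ran from -0.28 to 0.36, and those of all genes tested from -0.03 to 0.03. Stress genes summed to 1654 to 3298 CPM over the sums of both experiments, with overlap between all classes.

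The genes most like a member in pattern were sought over the 12 sums of the Troy-EGFP plates, by Pearson's r of log2(CPM + 20) among 2961 genes. These sums share mice and depth, so r is a description. Egfr was most like Igfbp4 (r = 0.883), Jund (0.871) and Steap4 (0.836). Lrig1 was most like Add3 (0.918), Plet1 (0.875) and Sprr1a (0.849). Areg (mean 10.5 CPM, with most of its transcripts from mouse 2) was most like Arhgap5 (0.847), Tmem50b (0.844) and Etl4 (0.820).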

How the data were processed

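mRNA of sorted epidermal cells was sequenced by CEL-Seq2 in bulk (6 libraries) and by SORT-seq in 384-well plates (6 plates). The bulk values are counts per gene as whole numbers, deposited without normalization. The plate values are transcripts estimated by the authors from the observed molecular barcodes with a correction for collisions. They turn back into whole barcode numbers for barcodes of 6 bases, although the labels give 4. The submitters' processing notes name BWA 0.6.2-r126 and the builds mm10 and GRCm38, and hg19 for bulk as well. The paper's methods used DESeq2 for bulk and Seurat v3 for single cells. The tables use 2 sets of gene names, and 1313 row names were given their current symbol.

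Wells with at least 1000 transcripts, without spike-ins and mitochondrial rows, were kept. The Troy-EGFP wells were clustered in Seurat 5.3.0 (sctransform 0.4.2, 20 principal components, 3000 variable genes, resolution 0.8) without the members and the pathway list. T cell-like (43 wells) and Langerhans cell-like clusters (39) were set aside, 103 wells of low-quality or unnamed clusters were removed, and no doublet caller was run. Labels were transferred to the traced plates as in the study. The rules for naming and removing clusters were changed after clusters had been seen. Transcripts were summed per mouse and class (at least 10 wells), rounded and tested over all genes with the quasi-likelihood test of edgeR 4.0.16 (R 4.3.3), after filterByExpr and TMM scaling, with Benjamini-Hochberg adjustment at 0.05. Bulk counts were tested in the same way with 3 population means and all 6 libraries. Alternatives were DESeq2 1.42.0, other filters, scalings, clusterings, depth minimums, the mouse as a block, and each library left out. Shares of wells carry exact binomial 95% intervals, and a share of 0 carries the limit of 3 wells. The scripts were tested on simulated data.

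The members were all named. Of the pathway list, every gene past the threshold was named, up to 5 a comparison by smallest p. The members and lists were chosen with earlier results of these data known. Each numbered sample holds all of its populations or classes and was taken as 1 mouse, which pairs them. As a check, the departures of a mouse's samples from their group means were correlated across genes (r 0.0526 to 0.0911 in bulk, 0.339 to 0.576 on the Troy-EGFP plates, 0.0430 on the traced plates). The p-values of the main fits rest on the spread within groups of 2 or 3 mice, without the mouse as a block. The interaction test pooled the sums of both experiments. The fits without a traced mouse took their spread from the Troy-EGFP sums as well. The sequences and positions are from RefSeq on GRCm38.p6, which matched all 10 members.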

Additional observations from a re-analysis of the deposited data

Results flagged for a closer look

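Erbb2, the receptor without a ligand of its own, was seen in wells that entered no comparison. The 103 wells of the Troy-EGFP plates in clusters removed as low-quality or unnamed held 6 barcodes of Erbb2, from 1, 2 and 2 wells of mice 2, 3 and 4. This is above the 3 counts that an empty group allows.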

How the results depend on the processing

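In bulk, 1 member (Lrig1) was called between Troy-EGFP+ and Troy-EGFP- cells. The count was 0 by DESeq2, 0 with genes of low counts kept, 0 with the 4 Troy-EGFP+ and Troy-EGFP- libraries alone, and 2 with the replicate block (Epgn and Lrig1), and 0 to 1 when 1 library was left out. On the traced plates 2 members differed among the classes, with 1 by DESeq2 (Epgn), 3 with the replicate block or with genes of low counts kept (Erbb2 added), and 0 without either mouse. The 6 calls of a member in a pair of classes were 4 by DESeq2, 7 without the deepest well and 6 with the traced plates clustered on their own (of Epgn and Erbb2, not Lrig1), both chosen after the data were seen, and 0 without either mouse. No fitted difference that was followed changed direction. Followed were the bulk differences and the class pairs with an unadjusted p under 0.05 in the main edgeR fit, so weaker pairs were not checked. Thinning changed the order of classes by share of wells for Epgn (its follicle classes), Egfr and Lrig1 on the traced plates. The replicate block raised the genes called in bulk from 324 to 469, 22 to 49 and 81 to 164, and on the Troy-EGFP plates from 482 to 973 in the joint test and, over the pairs in the report's order, from 113 to 372, 239 to 502, 174 to 480, 351 to 683, 184 to 485 and 230 to 452, without a member called there. Of the alternatives of single member values, 270 stayed the same, 27 lost and 9 gained a call, and 18 moved. The same meant the same side of the threshold or, for shares of wells, within the exact binomial interval of the thinned share. All 18 that moved were shares of wells before thinning. The cause was not tested, other than that leaving out a mouse leaves 1 sum a class. Depth limits the 6 rarer members to descriptions, and on the Troy-EGFP plates Egfr alone passed the filter on low counts.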
